A study of Homo sapiens with 9 samples.

Results

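Homologous recombination and the other main DNA repair routes were followed through 50 genes, the rows of the raw count table whose gene symbol is on a list built around BRCA1. All 50 were among the 60649 genes listed, and all 50 were among the 14274 that passed the filter on low counts. The list holds 5 genes of the BRCA1-BRCA2 complexes, 7 of the recombinase paralogs and strand exchange, 7 of break sensing, end resection and helicases, 7 checkpoint kinases and mediators and 10 of the Fanconi anemia pathway. It also holds 6 genes of end joining, 2 of base excision and single-strand break repair, 2 of mismatch repair and 4 of nucleotide excision repair.

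Cells repair a chromosome break either by end joining, which ligates the ends, or by homologous recombination, which copies the sister chromatid during S and G2 phase. In recombination the ends are first trimmed to single strands, and BRCA1, PALB2 and BRCA2 then load the recombinase that searches for the matching sequence. Tumors that have lost BRCA1 or BRCA2, many of them triple-negative breast cancers (TNBC), cannot complete this step and are sensitive to inhibitors of PARP1, an enzyme that acts at single-strand breaks.

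RNA-seq was performed on MDA-MB-231 cells, a human TNBC cell line that the study describes as wild type for BRCA1. The aim was to learn how the transcriptome differs once AHR is depleted. AHR is the gene of the aryl hydrocarbon receptor (AhR), a ligand-activated transcription factor. Of the 9 libraries, 3 carried the control vector pLKO-GFP, 3 the AHR short hairpin labelled shAHR#2 and 3 that labelled shAHR#3. All 9 carry the treatment label "proliferation", and no drug or DNA damage is named for them. Per the methods of the study, cells were infected with lentivirus, selected in puromycin and pooled, so that each group is a mixed population and not a clone. The labels number the hairpins 2 and 3 while the methods number them 1 and 2, so no target sequence is assigned to a label here.

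AHR itself was measured at 114, 118 and 121 CPM with pLKO-GFP, 42.5, 40.4 and 41.9 with shAHR#2 and 46.3, 52.1 and 44.5 with shAHR#3. CPM are counts scaled to a common library total, and the totals ran from 15991396 to 20374460 counts. All control libraries were above all 6 shAHR libraries, with log2 fold changes of -1.50 ± 0.05 (adjusted p = 1.05e-25) with shAHR#2 and -1.31 ± 0.05 (adjusted p = 4.95e-24) with shAHR#3. Vimentin (VIM) and CD44, both high in this line, stood at 2634 and 811 mean CPM with pLKO-GFP. Of the receptor genes on the check list, ESR1 and PGR were at 0.0357 and 0, and ERBB2 is not given here. Of 8 tested genes used to check the label, VIM, KRT19 and CDH1 rose with both constructs and CD44 fell. CDH1, E-cadherin, went from 0.909 mean CPM to 1.8 and 4.16. Of 5 markers of other cell types, CD3E was at 0 in all libraries, and 2 of the 3 tested rose with both constructs. PECAM1, of endothelium, was at 2.4, 11.2 and 12.2 mean CPM with pLKO-GFP, shAHR#2 and shAHR#3. PTPRC, of leukocytes, was at 0.119, 1.38 and 1.0, with log2 fold changes of 3.45 and 2.98. CD14 fell with shAHR#2, from 0.957 to 0.356, and VWF was at or under 0.326. Their part in the results was not tested.

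With shAHR#2, 23 of the 50 repair genes were lower than with pLKO-GFP and 11 were higher. Among all genes tested 33.2% were lower and 32.6% higher, so that at an adjusted p under 0.05 the falls of repair genes lay above the background and the rises under it. With shAHR#3, 23 were lower and 7 higher, beside 27.5% and 26.9% of all genes. The median log2 fold change over the 50 genes was -0.07 with shAHR#2 and -0.09 with shAHR#3, where the medians of all genes were -0.0032 and -6.88e-05. Calls are edgeR quasi-likelihood tests with a Benjamini-Hochberg adjusted p under 0.05 over all 14274 genes, and both comparisons share the 3 pLKO-GFP libraries. Errors after ± are standard errors, and where values come in pairs the first is that of shAHR#2 and the second that of shAHR#3. In bulk RNA a lower level in every cell and fewer cells that express a gene cannot be told apart.

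The shifts were small. Values over the 50 genes ran from -0.95 to 0.53 with shAHR#2 and from -0.53 to 0.36 with shAHR#3. Among called genes, 8 repair genes fell and 1, CHEK2, rose by at least 0.5 on the log2 scale with shAHR#2, where 16.1% and 13.6% of all genes did. With shAHR#3, 1 fell, XPA, and 0 rose by that much, where 7.78% and 9.69% of all genes did. For shifts of this size the falls with shAHR#2 thus lay near the background, and the rest of these counts lay under it. By role and without that cut, break sensing and end resection had 5 of 7 genes lower and 0 higher with shAHR#2, and 6 and 0 with shAHR#3. End joining had 1 of 6 lower and 3 higher with shAHR#2, and 2 and 3 with shAHR#3. The shares of all genes were 33.2% lower and 32.6% higher with shAHR#2, and 27.5% and 26.9% with shAHR#3.

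**Figure D1:**
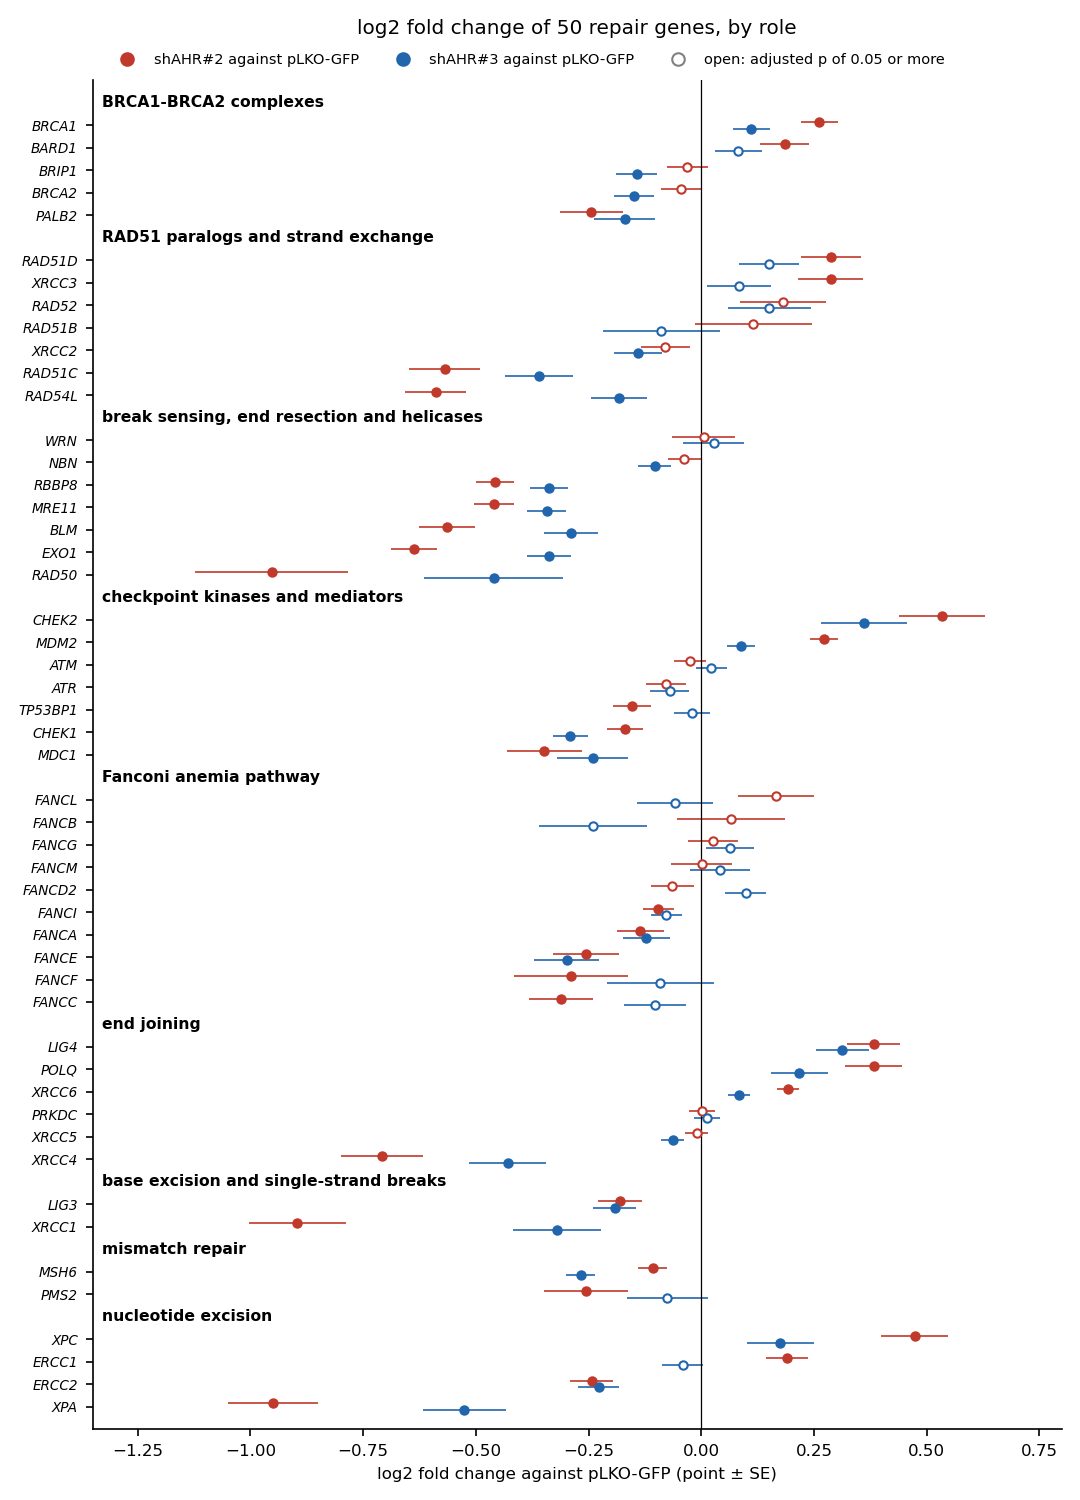
log2 fold change (x axis, point ± SE) of the 50 repair genes against pLKO-GFP, grouped by role and ordered within each role by the shAHR#2 value, with shAHR#2 in red, shAHR#3 in blue and open points for genes not called. RAD50, XPA and XRCC1 lie farthest left with shAHR#2, and CHEK2 farthest right with both constructs.

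The promoters of the 3 genes with the largest falls and the 2 with the largest rises with shAHR#2 are printed here because AhR is a DNA-binding factor, whose response element (XRE) has the core GCGTG. Each line gives the 250 bases before the RefSeq start (GRCh38.p14, 5′ to 3′ on the strand of the gene), with capitals marking the XRE core, the E2F letters TTTCCCGC, TTTGGCGC, TTTCGCGC or TTTGCCGC, the CHR letters TTTGAA and the CCAAT box, on either strand. RAD50, XPA and XRCC1 fell, and CHEK2 and XPC rose. The windows are chr5:132556727-132556976 (plus strand) for RAD50, chr9:97697341-97697590 (minus strand) for XPA, chr19:43575528-43575777 (minus strand) for XRCC1, chr22:28741821-28742070 (minus strand) for CHEK2 and chr3:14178602-14178851 (minus strand) for XPC.
RAD50: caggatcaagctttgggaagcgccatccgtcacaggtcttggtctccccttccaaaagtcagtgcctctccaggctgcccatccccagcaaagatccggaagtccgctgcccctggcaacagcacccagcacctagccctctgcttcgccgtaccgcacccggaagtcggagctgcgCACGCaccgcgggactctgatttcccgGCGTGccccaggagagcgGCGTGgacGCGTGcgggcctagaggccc
XPA: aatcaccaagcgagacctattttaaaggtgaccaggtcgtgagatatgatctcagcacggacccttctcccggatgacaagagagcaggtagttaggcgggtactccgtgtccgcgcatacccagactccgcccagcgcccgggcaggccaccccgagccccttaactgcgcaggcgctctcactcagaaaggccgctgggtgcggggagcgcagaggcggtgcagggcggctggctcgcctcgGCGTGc
XRCC1: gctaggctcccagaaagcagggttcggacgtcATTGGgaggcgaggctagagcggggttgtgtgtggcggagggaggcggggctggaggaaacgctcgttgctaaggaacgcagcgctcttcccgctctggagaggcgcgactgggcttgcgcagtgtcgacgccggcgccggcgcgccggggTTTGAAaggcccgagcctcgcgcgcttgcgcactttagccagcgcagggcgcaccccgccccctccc
CHEK2: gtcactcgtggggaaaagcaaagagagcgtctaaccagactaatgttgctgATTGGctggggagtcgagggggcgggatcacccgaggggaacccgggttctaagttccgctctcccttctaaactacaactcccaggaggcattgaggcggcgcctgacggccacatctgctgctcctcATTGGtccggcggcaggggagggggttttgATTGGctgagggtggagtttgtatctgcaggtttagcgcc
XPC: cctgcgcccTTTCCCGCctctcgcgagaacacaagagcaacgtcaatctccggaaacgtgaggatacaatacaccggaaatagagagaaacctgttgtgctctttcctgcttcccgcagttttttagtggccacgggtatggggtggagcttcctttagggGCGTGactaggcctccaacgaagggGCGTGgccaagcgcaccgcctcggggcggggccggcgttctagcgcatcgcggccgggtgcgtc

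RAD50 holds 4 XRE cores within 73 bases of its start, and XPA holds 1 at 6 bases before it. XPC holds 2, at 89 and 64 bases before the start, with E2F letters at 241, while its level moved the other way. XRCC1 has no XRE core in this window but a CHR at 67 bases and a CCAAT box at 218, and CHEK2 has 3 CCAAT boxes at 199, 70 and 40. A match is a description of letters, not of binding.

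Windows of 250 bases before to 50 after the start were found for 45 of the 50 genes. Of these 26 (57.8%) held an XRE core, where 36.3% of 27305 promoters did. The longer letters TNGCGTG were in 4 (8.89%) against 5.51%, E2F letters in 10 (22.2%) against 3.33%, a CHR in 6 (13.3%) against 15.4% and a CCAAT box in 21 (46.7%) against 35.7%. Only 38 of the 45 windows start within 100 bases of the MANE Select transcript (the reference transcript agreed between RefSeq and Ensembl), and the window of BRCA1 is not among them. Over windows that do, an XRE core was in 60.5% of repair genes and in 45.6% of 12908 promoters. For the CHR the direction turned there, with 6 of 38 against 11.6% of promoters. By direction, the XRE core was in 15 of 22 windows of genes lower with shAHR#2, 5 of 11 of those higher and 6 of 12 of the rest. The promoters used for comparison were not limited to genes that passed the filter on low counts, whereas all 50 repair genes passed it. The shares are therefore not matched for expression.

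BRCA1 was higher in AHR-depleted cells. It was counted at 74.8, 73.3 and 71.3 CPM with pLKO-GFP, 83.3, 91.4 and 88.4 with shAHR#2 and 77.4, 79 and 80.3 with shAHR#3. The shAHR#2 libraries were the highest, the shAHR#3 libraries lay between them and the controls, and no groups overlapped. The log2 fold change was 0.26 ± 0.04 (adjusted p = 8.41e-07) with shAHR#2 and 0.11 ± 0.04 (adjusted p = 0.0214) with shAHR#3, and the difference between the constructs was -0.15 ± 0.04 (adjusted p = 0.00255). The shAHR#3 call was lost without pLKO-GFP replicate 3 (0.09, adjusted p = 0.103) or shAHR#3 replicate 3 (0.10, adjusted p = 0.0601), and with DESeq2 (0.11, adjusted p = 0.053). BARD1, the obligate RING partner of BRCA1, stood at 38.6, 38.5 and 37.8 CPM with pLKO-GFP, 45.4, 42.2 and 42.9 with shAHR#2 and 40.6, 40 and 41.1 with shAHR#3. Its log2 fold change was 0.18 ± 0.05 (adjusted p = 0.00283) with shAHR#2 and 0.08 ± 0.05 (adjusted p = 0.191) with shAHR#3, so that it rose with shAHR#2, and no groups overlapped.

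PALB2, BRCA2 and BRIP1 were called lower with at least 1 construct and higher with none. PALB2, which bridges BRCA1 and BRCA2, was at 31.3, 32.9 and 27.3 CPM with pLKO-GFP, 27, 25.7 and 24.5 with shAHR#2 and 26.6, 27.4 and 27.3 with shAHR#3. Its pLKO-GFP replicate 3 lay within the shAHR#3 range and above all shAHR#2 libraries. Its log2 fold change was -0.24 ± 0.07 (adjusted p = 0.00265) with shAHR#2 and -0.17 ± 0.07 (adjusted p = 0.0326) with shAHR#3, and the shAHR#3 call was lost without pLKO-GFP replicate 1 (-0.15, adjusted p = 0.0983), pLKO-GFP replicate 2 (-0.11, adjusted p = 0.23) or shAHR#3 replicate 1 (-0.15, adjusted p = 0.0966), and with DESeq2 (-0.17, adjusted p = 0.0634). BRCA2, which loads the recombinase onto resected DNA, was at 65.6, 62.2 and 63.8 CPM with pLKO-GFP, 63.4, 58.6 and 63.4 with shAHR#2 and 56.5, 58.7 and 57.3 with shAHR#3. It fell with shAHR#3 and not detectably with shAHR#2, at -0.04 ± 0.05 (adjusted p = 0.393) with shAHR#2 and -0.15 ± 0.04 (adjusted p = 0.00454) with shAHR#3, and the difference between the constructs, -0.10 ± 0.05 (adjusted p = 0.0619), did not pass the test. BRIP1, a helicase bound by BRCA1, had log2 fold changes of -0.03 and -0.14 and was called lower with shAHR#3, a call lost without shAHR#3 replicate 2 (-0.10, adjusted p = 0.0811).

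**Figure D2:**
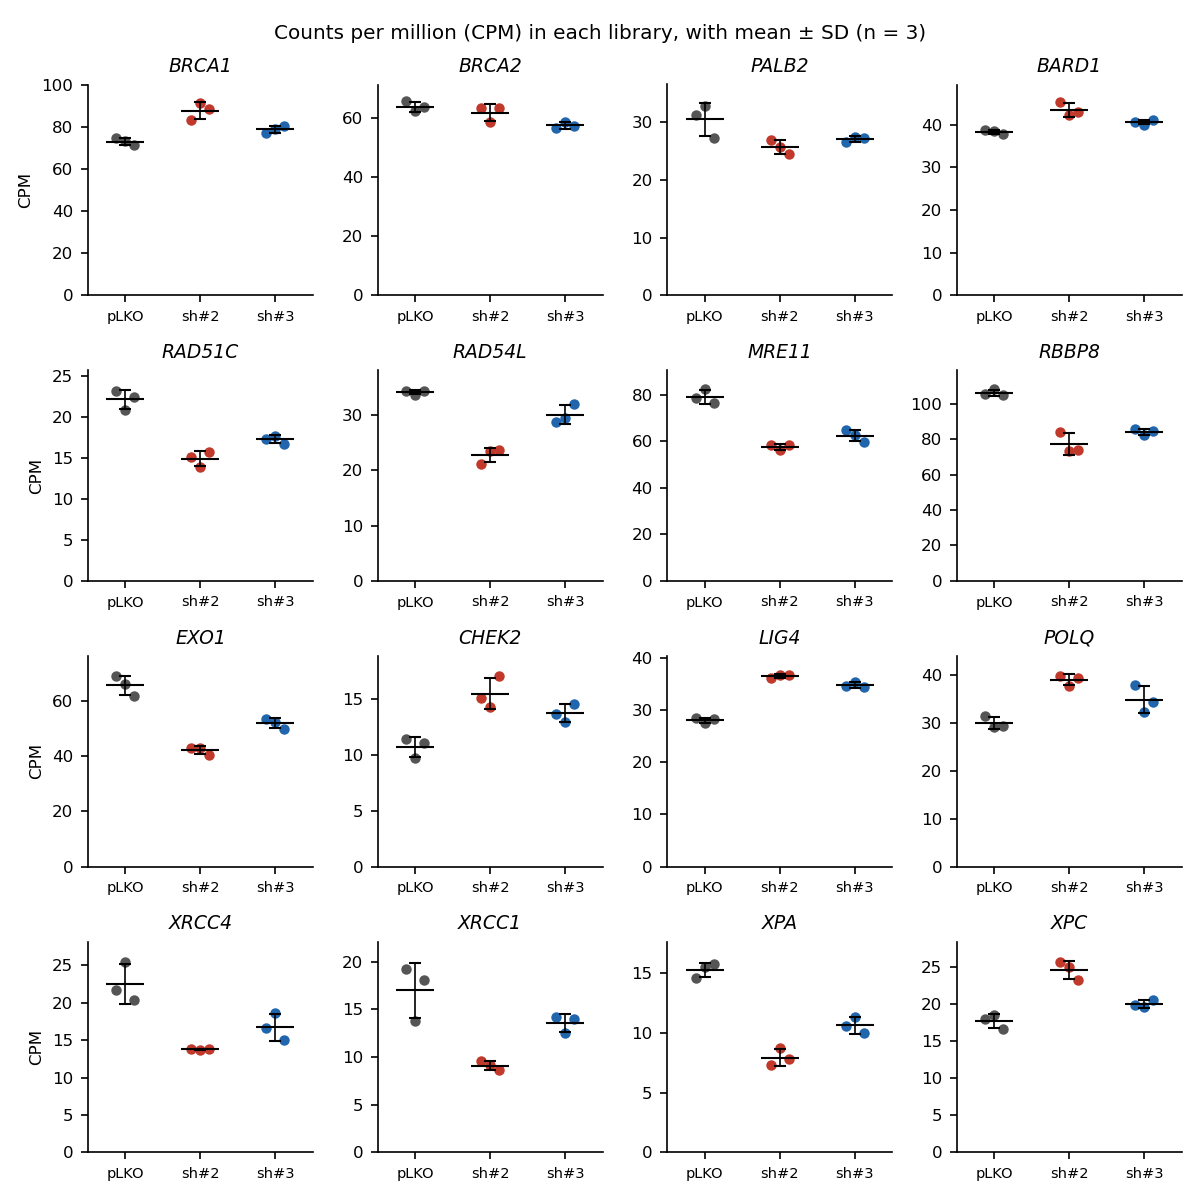
CPM of 16 repair genes (y axis, from 0) in each library of pLKO-GFP (grey), shAHR#2 (red) and shAHR#3 (blue), with black bars for the mean ± SD of 3 libraries. The groups of BRCA1, RAD51C, RAD54L, MRE11, EXO1, LIG4, XPA and XPC do not overlap, while those of BRCA2 and PALB2 do.

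Of the recombinase paralogs and strand exchange factors, 2 fell and 2 rose with shAHR#2, close to the 33.2% and 32.6% of all genes, and 3 fell and 0 rose with shAHR#3, beside 27.5% and 26.9%. RAD51C, a paralog found in both paralog complexes, was at 23.2, 20.9 and 22.5 CPM with pLKO-GFP, 15.1, 13.9 and 15.8 with shAHR#2 and 17.3, 17.8 and 16.8 with shAHR#3. Every shAHR library was under every control, and the log2 fold change was -0.57 ± 0.08 (adjusted p = 8.18e-08) with shAHR#2 and -0.36 ± 0.08 (adjusted p = 1.13e-04) with shAHR#3. RAD54L, a translocase that helps strand invasion, was at 34.4, 33.7 and 34.4 CPM with pLKO-GFP, 21.2, 23.5 and 23.6 with shAHR#2 and 28.7, 29.5 and 32.1 with shAHR#3. The 3 groups were apart, at -0.59 ± 0.07 (adjusted p = 8.35e-10) with shAHR#2 and -0.18 ± 0.06 (adjusted p = 0.0129) with shAHR#3, and the shAHR#3 call was lost without shAHR#3 replicate 1 (-0.15, adjusted p = 0.080). It shares 19.9% of its exon bases with LRRC41 on the opposite strand, a gene at log2 fold changes of -0.02 and -0.08.

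Other paralogs moved up with shAHR#2. RAD51D, part of the complex with RAD51B, RAD51C and XRCC2, was at 25, 28.3 and 27.4 CPM with pLKO-GFP, 33.3, 33.1 and 32.3 with shAHR#2 and 32.1, 29.7 and 27.9 with shAHR#3, log2 fold changes of 0.29 ± 0.07 (adjusted p = 2.76e-04) with shAHR#2 and 0.15 ± 0.07 (adjusted p = 0.0517) with shAHR#3. XRCC3, the partner of RAD51C in the smaller complex, was at 22.2, 26.3 and 27.1 CPM with pLKO-GFP, 28.7, 31.9 and 32 with shAHR#2 and 27.5, 26.3 and 26.6 with shAHR#3, log2 fold changes of 0.29 ± 0.07 (adjusted p = 6.54e-04) with shAHR#2 and 0.08 ± 0.07 (adjusted p = 0.334) with shAHR#3. For both genes the shAHR#2 libraries were above all controls and the shAHR#3 libraries overlapped them. XRCC3 shares 76.7% of its annotated exon bases with KLC1 on the opposite strand, and KLC1 itself had log2 fold changes of 0.41 and 0.42, so that the XRCC3 value is uncertain unless strand was used in counting. XRCC2, of the larger complex, had log2 fold changes of -0.08 and -0.14 and was called lower with shAHR#3, a call lost without pLKO-GFP replicate 1 (-0.07, adjusted p = 0.285) or shAHR#3 replicate 2 (-0.10, adjusted p = 0.142), and with DESeq2 (-0.14, adjusted p = 0.0532). RAD51B had log2 fold changes of 0.12 and -0.09, and RAD52, an annealing protein, had values of 0.18 and 0.15, and neither was called with either construct.

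Of the break sensing, end resection and helicase genes 5 of 7 fell and 0 rose with shAHR#2 (median -0.46), beside 33.2% and 32.6% of all genes, and 6 fell and 0 rose with shAHR#3 (median -0.34), beside 27.5% and 26.9%. MRE11, the nuclease of the complex that detects breaks, was at 78.6, 82.6 and 76.5 CPM with pLKO-GFP, 58.3, 56.2 and 58.3 with shAHR#2 and 64.8, 62.9 and 59.9 with shAHR#3. RBBP8, which encodes CtIP, the cofactor that starts resection with MRE11, was at 105, 108 and 105 CPM with pLKO-GFP, 84.1, 73.4 and 73.8 with shAHR#2 and 85.4, 82.1 and 84.5 with shAHR#3. Both genes were lower in all 6 shAHR libraries than in any control. MRE11 had log2 fold changes of -0.46 ± 0.04 (adjusted p = 1.81e-11) with shAHR#2 and -0.34 ± 0.04 (adjusted p = 1.46e-08) with shAHR#3, and RBBP8 of -0.46 ± 0.04 (adjusted p = 6.53e-12) with shAHR#2 and -0.34 ± 0.04 (adjusted p = 7.95e-09) with shAHR#3.

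EXO1 and BLM, which act in long-range resection, fell with both constructs, while WRN was not called. EXO1, an exonuclease, was at 68.8, 66 and 61.7 CPM with pLKO-GFP, 42.9, 42.9 and 40.4 with shAHR#2 and 53.2, 52.4 and 49.8 with shAHR#3, the lowest libraries being those with shAHR#2. Its log2 fold change was -0.64 ± 0.05 (adjusted p = 8.97e-14) with shAHR#2 and -0.34 ± 0.05 (adjusted p = 1.74e-07) with shAHR#3. BLM, a helicase that unwinds DNA for resection and dissolves crossed strands, had means of 37.8, 25.6 and 31 CPM, log2 fold changes of -0.56 ± 0.06 (adjusted p = 4.96e-10) with shAHR#2 and -0.29 ± 0.06 (adjusted p = 8.41e-05) with shAHR#3. WRN, another RecQ helicase, had log2 fold changes of 0.01 and 0.03. NBN, the signalling subunit of the MRE11 complex, had log2 fold changes of -0.04 and -0.10 and fell with shAHR#3, a call lost without pLKO-GFP replicate 2 (-0.07, adjusted p = 0.138) or shAHR#3 replicate 3 (-0.07, adjusted p = 0.0977).

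RAD50, the ATPase of that complex, had the lowest level of the 50 genes per kilobase. It was at 8.24, 5.49 and 5.42 CPM with pLKO-GFP, 3.59, 3.08 and 3.1 with shAHR#2 and 5.09, 4.2 and 4.54 with shAHR#3, with pLKO-GFP replicate 1 apart from the other controls. No shAHR library reached the range of the controls, and the log2 fold change was -0.95 ± 0.17 (adjusted p = 6.50e-06) with shAHR#2 and -0.46 ± 0.15 (adjusted p = 0.011) with shAHR#3, and the shAHR#3 call was lost without pLKO-GFP replicate 1 (-0.24, adjusted p = 0.207). Per kilobase of MANE Select transcript RAD50 stood at 0.772 mean CPM with pLKO-GFP, where MRE11 stood at 11.6 and NBN at 33.7. An annotated read-through gene on the same strand covers 76.9% of the RAD50 exon bases and was listed with mean counts of 1.67, 2.33 and 2.00 in the 3 groups. Whether reads that fit both genes were counted is not given in the sources used here, so the RAD50 level is uncertain.

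Among checkpoint genes CHEK2 rose and CHEK1 fell. CHEK2, the kinase that ATM activates at breaks, was at 11.4, 9.69 and 11 CPM with pLKO-GFP, 15.1, 14.3 and 17.1 with shAHR#2 and 13.7, 12.9 and 14.5 with shAHR#3. All 6 shAHR libraries lay above the controls, with log2 fold changes of 0.53 ± 0.10 (adjusted p = 7.41e-06) with shAHR#2 and 0.36 ± 0.09 (adjusted p = 0.00144) with shAHR#3. CHEK1, the kinase downstream of ATR, went from a mean of 115 CPM with pLKO-GFP to 102 and 93.9, log2 fold changes of -0.17 ± 0.04 (adjusted p = 3.57e-04) with shAHR#2 and -0.29 ± 0.04 (adjusted p = 7.52e-08) with shAHR#3. The upstream kinases showed no detectable change, with log2 fold changes of -0.02 and 0.02 for ATM and values of -0.08 and -0.07 for ATR. CHEK2 has near-identical partial copies elsewhere in the genome, among which reads could be split.

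MDM2, the ubiquitin ligase that holds p53 low, was at 144, 144 and 140.2 CPM with pLKO-GFP, 174, 168 and 175 with shAHR#2 and 154, 152 and 149 with shAHR#3, without overlap between groups. Its log2 fold change was 0.27 ± 0.03 (adjusted p = 1.36e-09) with shAHR#2 and 0.09 ± 0.03 (adjusted p = 0.0165) with shAHR#3, and the shAHR#3 call was lost without pLKO-GFP replicate 3 (0.08, adjusted p = 0.0794) or shAHR#3 replicate 1 (0.08, adjusted p = 0.0556). MDC1, the scaffold that binds phosphorylated histone at breaks, fell with both constructs, with log2 fold changes of -0.35 and -0.24, the latter call being lost without pLKO-GFP replicate 1 (-0.20, adjusted p = 0.0572) or shAHR#3 replicate 3 (-0.18, adjusted p = 0.0717). TP53BP1, which shields ends from resection, had log2 fold changes of -0.15 ± 0.04 (adjusted p = 0.00152) with shAHR#2 and -0.02 ± 0.04 (adjusted p = 0.698) with shAHR#3 and so fell with shAHR#2. The constructs differed by 0.13 ± 0.04 (adjusted p = 0.00866), a call lost without shAHR#2 replicate 1 (0.10, adjusted p = 0.0851), and 28.8% of its exon bases are shared with TUBGCP4 on the opposite strand.

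No Fanconi anemia gene was called higher with either construct, where 32.6% of all genes were with shAHR#2 and 26.9% with shAHR#3. This pathway removes crosslinks between DNA strands and hands the break to recombination. Of its 10 genes 5 fell with shAHR#2, where 33.2% of all genes did, and 2 with shAHR#3, where 27.5% did. The share with shAHR#3 is thus under that of all genes. FANCE, of the core complex, had log2 fold changes of -0.26 ± 0.07 (adjusted p = 0.00273) with shAHR#2 and -0.30 ± 0.07 (adjusted p = 5.96e-04) with shAHR#3, and FANCA, also of the core, of -0.14 ± 0.05 (adjusted p = 0.0243) with shAHR#2 and -0.12 ± 0.05 (adjusted p = 0.0441) with shAHR#3. The shAHR#2 call of FANCA was lost without pLKO-GFP replicate 3 (-0.09, adjusted p = 0.167), shAHR#2 replicate 1 (-0.12, adjusted p = 0.0885) or shAHR#2 replicate 2 (-0.12, adjusted p = 0.085), and with DESeq2 (-0.13, adjusted p = 0.0605). Its shAHR#3 call was lost without any 1 of the libraries except pLKO-GFP replicate 1 and shAHR#3 replicate 3, at adjusted p-values up to 0.257, and with DESeq2 (-0.12, adjusted p = 0.0861), with unfiltered counts (-0.12, adjusted p = 0.0666) and in a fit of the compared groups alone (-0.12, adjusted p = 0.0635).

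FANCC and FANCF, both of the core complex, and FANCI were called lower with shAHR#2 and not with shAHR#3. FANCC had log2 fold changes of -0.31 and -0.10, FANCF values of -0.29 and -0.09 and FANCI values of -0.09 and -0.08. The FANCF call was lost without pLKO-GFP replicate 1 (-0.23, adjusted p = 0.15), pLKO-GFP replicate 2 (-0.28, adjusted p = 0.0909) or shAHR#2 replicate 1 (-0.15, adjusted p = 0.348), and with DESeq2 (-0.28, adjusted p = 0.0969) and with unfiltered counts (-0.30, adjusted p = 0.0516). That of FANCI was lost without pLKO-GFP replicate 1 (-0.08, adjusted p = 0.0938) or shAHR#2 replicate 1 (-0.07, adjusted p = 0.163). Between the constructs FANCC differed, at 0.21 ± 0.07 (adjusted p = 0.0178), a call lost without shAHR#2 replicate 2 (0.20, adjusted p = 0.0581) or shAHR#3 replicate 1 (0.18, adjusted p = 0.0752), and the other two were not called. FANCD2, which is ubiquitinated together with FANCI, had log2 fold changes of -0.06 and 0.10, with an adjusted p of 0.064 for shAHR#3, and has near-identical partial copies elsewhere. FANCG, of the core, had log2 fold changes of 0.03 and 0.06, FANCM, the translocase that anchors the core, values of 0.0012 and 0.04, and FANCL, the ubiquitin ligase subunit, values of 0.17 and -0.06, none of them called against pLKO-GFP. FANCB, a partner of FANCL, was at 8.53, 7.34 and 8.96 CPM with pLKO-GFP, 8.53, 7.51 and 9.93 with shAHR#2 and 7.56, 6.7 and 6.74 with shAHR#3, with overlap between all groups and log2 fold changes of 0.07 ± 0.12 (adjusted p = 0.644) with shAHR#2 and -0.24 ± 0.12 (adjusted p = 0.0884) with shAHR#3.

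End joining genes went both ways. LIG4, the ligase of the main pathway, was at 28.4, 27.4 and 28.2 CPM with pLKO-GFP, 36.1, 36.7 and 36.8 with shAHR#2 and 34.6, 35.4 and 34.3 with shAHR#3. POLQ, the polymerase of the alternative, microhomology-mediated pathway, was at 31.5, 29.2 and 29.3 CPM with pLKO-GFP, 39.9, 37.8 and 39.5 with shAHR#2 and 38, 32.3 and 34.4 with shAHR#3. All shAHR libraries were above all controls for both genes. LIG4 had log2 fold changes of 0.38 ± 0.06 (adjusted p = 5.78e-07) with shAHR#2 and 0.31 ± 0.06 (adjusted p = 1.96e-05) with shAHR#3, and POLQ of 0.38 ± 0.06 (adjusted p = 2.00e-06) with shAHR#2 and 0.22 ± 0.06 (adjusted p = 0.00347) with shAHR#3.

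XRCC4, the scaffold that stabilizes LIG4, moved against its partner. It was at 21.6, 25.5 and 20.4 CPM with pLKO-GFP, 13.8, 13.7 and 13.8 with shAHR#2 and 16.6, 18.6 and 15 with shAHR#3, all shAHR libraries being under the controls, and had log2 fold changes of -0.71 ± 0.09 (adjusted p = 1.20e-08) with shAHR#2 and -0.43 ± 0.09 (adjusted p = 5.04e-05) with shAHR#3. The Ku subunits are the most abundant of the 50 genes per kilobase, at 226 mean CPM for XRCC6 and 135 for XRCC5 with pLKO-GFP. XRCC6 had log2 fold changes of 0.19 ± 0.02 (adjusted p = 1.53e-08) with shAHR#2 and 0.08 ± 0.02 (adjusted p = 0.00416) with shAHR#3, and XRCC5 of -0.01 ± 0.03 (adjusted p = 0.744) with shAHR#2 and -0.06 ± 0.03 (adjusted p = 0.0356) with shAHR#3. The XRCC5 call was lost without any 1 library except pLKO-GFP replicate 2 and shAHR#3 replicates 2 and 3, at adjusted p-values up to 0.224, and with unfiltered counts (-0.06, adjusted p = 0.0622) and in a fit of the compared groups alone (-0.06, adjusted p = 0.0827). XRCC6 has near-identical copies elsewhere. PRKDC, the kinase that Ku recruits, had log2 fold changes of 0.00095 and 0.01, with standard errors of 0.03 and 0.03.

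Both base excision and single-strand break genes fell with both constructs. XRCC1, the scaffold that PARP1 activity brings to single-strand breaks, was at 19.2, 13.7 and 18.1 CPM with pLKO-GFP, 9.55, 9.12 and 8.6 with shAHR#2 and 14.2, 12.5 and 14 with shAHR#3. The shAHR#2 libraries were the lowest, and pLKO-GFP replicate 2 lay within the shAHR#3 range. The log2 fold change was -0.90 ± 0.11 (adjusted p = 2.88e-09) with shAHR#2 and -0.32 ± 0.10 (adjusted p = 0.00529) with shAHR#3, and the shAHR#3 call was lost without pLKO-GFP replicate 1 (-0.23, adjusted p = 0.0689). LIG3, the ligase carried by XRCC1, went from 56.9 mean CPM to 50.2 and 49.8, log2 fold changes of -0.18 ± 0.05 (adjusted p = 0.00141) with shAHR#2 and -0.19 ± 0.05 (adjusted p = 7.63e-04) with shAHR#3. PARP1 itself, outside the list and named after its values were seen, had log2 fold changes of -0.51 ± 0.03 (adjusted p = 5.04e-18) with shAHR#2 and -0.24 ± 0.03 (adjusted p = 2.03e-09) with shAHR#3.

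Mismatch repair is represented by MSH6 and PMS2. MSH6, which recognizes base mismatches, fell from 194 mean CPM to 180.2 and 161, log2 fold changes of -0.11 ± 0.03 (adjusted p = 0.00374) with shAHR#2 and -0.27 ± 0.03 (adjusted p = 5.16e-09) with shAHR#3. PMS2, the endonuclease partner, had log2 fold changes of -0.26 ± 0.09 (adjusted p = 0.0166) with shAHR#2 and -0.08 ± 0.09 (adjusted p = 0.50) with shAHR#3. The PMS2 call was lost without pLKO-GFP replicate 1 (-0.22, adjusted p = 0.0702) or pLKO-GFP replicate 3 (-0.18, adjusted p = 0.131), and this gene has near-identical copies among which reads could be split.

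Nucleotide excision genes ran from -0.95 to 0.47 with shAHR#2. XPA, the damage verification factor, was at 14.6, 15.5 and 15.7 CPM with pLKO-GFP, 7.29, 8.73 and 7.78 with shAHR#2 and 10.5, 11.4 and 9.96 with shAHR#3. XPC, which finds bulky lesions, was at 18, 18.5 and 16.7 CPM with pLKO-GFP, 25.6, 25 and 23.2 with shAHR#2 and 19.9, 19.6 and 20.6 with shAHR#3. For XPA the groups were in the order pLKO-GFP, shAHR#3, shAHR#2 from high to low, and for XPC in the reverse order, with no overlap in either. XPA had log2 fold changes of -0.95 ± 0.10 (adjusted p = 1.39e-10) with shAHR#2 and -0.53 ± 0.09 (adjusted p = 7.71e-06) with shAHR#3, and XPC of 0.47 ± 0.07 (adjusted p = 8.12e-07) with shAHR#2 and 0.18 ± 0.07 (adjusted p = 0.0464) with shAHR#3.

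The XPC call with shAHR#3 was lost with DESeq2 (0.17, adjusted p = 0.0952) and with unfiltered counts (0.17, adjusted p = 0.0974), and without any 1 of the pLKO-GFP and shAHR#3 libraries except pLKO-GFP replicate 2, at adjusted p-values up to 0.201. An antisense RNA covers 24.6% of its exon bases. ERCC1, a subunit of the nuclease that cuts before the lesion, was at 60.1, 64.8 and 62.9 CPM with pLKO-GFP, 71.4, 70.7 and 72.4 with shAHR#2 and 57, 61.7 and 63.9 with shAHR#3. It was higher in all shAHR#2 libraries and overlapped the controls with shAHR#3, at 0.19 ± 0.05 (adjusted p = 4.19e-04) with shAHR#2 and -0.04 ± 0.05 (adjusted p = 0.466) with shAHR#3. ERCC2, a helicase of TFIIH, had log2 fold changes of -0.24 ± 0.05 (adjusted p = 2.37e-05) with shAHR#2 and -0.23 ± 0.05 (adjusted p = 6.04e-05) with shAHR#3.

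The effects of the hairpins differed for 25 of the 50 genes. Set directly against shAHR#2, the shAHR#3 libraries were higher for 13 repair genes and lower for 12, beside 21.9% and 20.4% of all genes, so that these counts lie near the background. The median difference was 0.01, as it was for all genes at 0.0068. XRCC1 (0.57 ± 0.11, adjusted p = 4.59e-05), RAD50 (0.49 ± 0.18, adjusted p = 0.023) and XPA (0.42 ± 0.11, adjusted p = 0.00109) were the 3 genes most above shAHR#2. FANCB (-0.31 ± 0.12, adjusted p = 0.040), XPC (-0.30 ± 0.07, adjusted p = 9.63e-04) and ERCC1 (-0.23 ± 0.05, adjusted p = 6.77e-05) were the 3 most below it. The RAD50 call was lost without shAHR#2 replicate 2 (0.46, adjusted p = 0.0674), shAHR#2 replicate 3 (0.46, adjusted p = 0.0648) or shAHR#3 replicate 1 (0.42, adjusted p = 0.0917). That of FANCB was lost without shAHR#2 replicate 1 (-0.32, adjusted p = 0.0749), shAHR#2 replicate 3 (-0.20, adjusted p = 0.259), shAHR#3 replicate 2 (-0.28, adjusted p = 0.108) or shAHR#3 replicate 3 (-0.28, adjusted p = 0.101), and with DESeq2 (-0.31, adjusted p = 0.0843) and with unfiltered counts (-0.30, adjusted p = 0.0573). AHR was also higher with shAHR#3 than with shAHR#2 (0.19 ± 0.05, adjusted p = 0.00283), a call lost without shAHR#3 replicate 2 (0.13, adjusted p = 0.0626).

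In that comparison 5 of the 7 break sensing and resection genes were higher with shAHR#3 and 0 lower, beside 21.9% and 20.4% of all genes. EXO1 differed by 0.30 ± 0.05 (adjusted p = 9.70e-06) and BLM by 0.28 ± 0.06 (adjusted p = 5.33e-04), and outside this group RAD54L differed by 0.41 ± 0.07 (adjusted p = 5.00e-06). MRE11 and RBBP8 differed by 0.12 and 0.12 on the log2 scale. The MRE11 call was lost without any 1 of the shAHR libraries except shAHR#3 replicate 3, at adjusted p-values up to 0.161, and with DESeq2 (0.11, adjusted p = 0.099) and with unfiltered counts (0.12, adjusted p = 0.0522). That of RBBP8 was lost without shAHR#2 replicate 2 (0.09, adjusted p = 0.156), shAHR#2 replicate 3 (0.09, adjusted p = 0.141) or shAHR#3 replicate 1 (0.11, adjusted p = 0.0777), and with DESeq2 (0.12, adjusted p = 0.0655). Without shAHR#2 replicate 1 its difference was 0.19. CHEK2 did not differ detectably between the constructs (-0.17 ± 0.09, adjusted p = 0.131), nor did LIG4 (-0.07 ± 0.06, adjusted p = 0.353).

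Per kilobase of MANE Select transcript, the 50 genes spanned 0.772 to 226 mean CPM with pLKO-GFP. BRCA1 was at 10.3, BRCA2 at 5.34, PALB2 at 7.62 and BARD1 at 6.99. Summed over the 50 genes, the libraries held 4014 to 4110 CPM with pLKO-GFP, 3970 to 4008 with shAHR#2 and 3863 to 3936 with shAHR#3. PRKDC, XRCC6 and XRCC5 made up 39.4%, 41.7% and 41.3% of these sums.

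**Figure D3:**
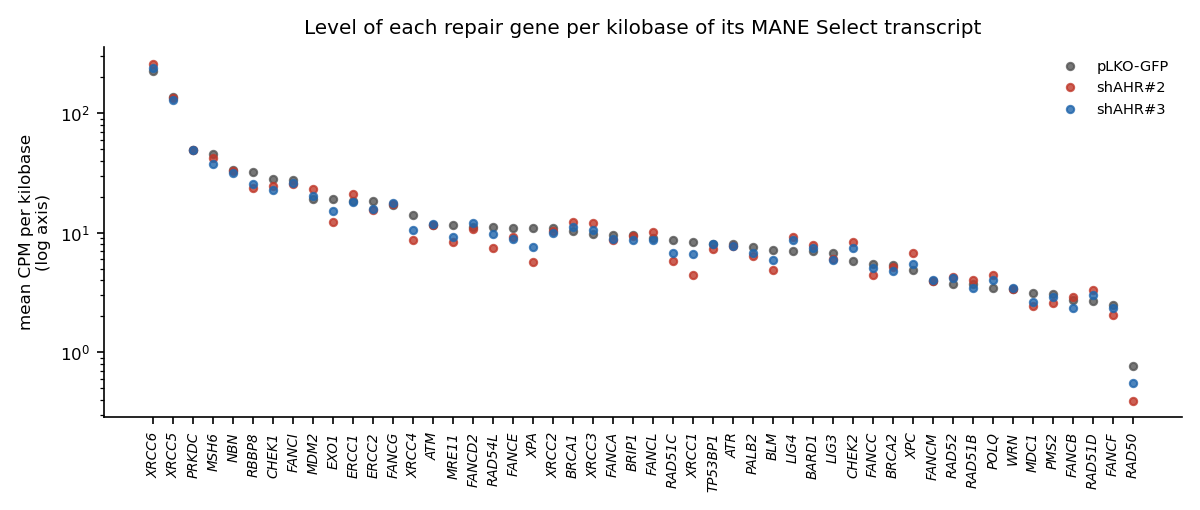
Mean CPM per kilobase of MANE Select transcript (y axis, log scale) of the 50 repair genes, ordered by the pLKO-GFP level, with pLKO-GFP in grey, shAHR#2 in red and shAHR#3 in blue. XRCC6 is at 226 and RAD50 at 0.772 with pLKO-GFP, and the groups of a gene lie far closer together than the genes do.

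Neighbouring genes on the chromosome were read beside each repair gene, as the median log2 fold change of up to 25 tested genes on each side. RAD50 and XRCC4 lie on chromosome 5, at chr5:132556019-132646349 and chr5:83077498-83353787 in GENCODE release 44. Their neighbours had medians of -0.45 and -0.23 with shAHR#2 and shAHR#3 for RAD50, and of -0.42 and -0.25 for XRCC4. Over the 656 tested genes of chromosome 5 the medians were -0.48 and -0.26. Neighbours of EXO1 were at -0.26 and -0.18, and those of BLM at -0.18 and 0.06.

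Neighbours of other genes with large shifts had medians nearer to 0 than those on chromosome 5. They were at -0.02 and 0.02 for XPA, 0.13 and 0.04 for XRCC1, 0.09 and 0.09 for RAD51C, -0.01 and -0.04 for RAD54L, 0.01 and -0.11 for MRE11 and 0.09 and 0.06 for CHEK2. For BRCA1 they were at 0.17 and 0.16, and for MDM2 at 0.26 and 0.19. Among the other named rises they were at 0.23 and 0.19 for LIG4 and 0.21 and 0.17 for XRCC3. They were at 0.15 and 0.09 for POLQ, 0.12 and 0.08 for XPC and 0.07 and -0.01 for RAD51D. The part of these regional shifts in the values of the repair genes was not tested. Of the other named genes, LIG3 shares 29.1% of its exon bases with RFFL, ERCC1 28.6% with POLR1G, MSH6 22.7% with FBXO11, FANCA 19.6% with ZNF276 and XRCC1 17.6% with a long noncoding RNA, all on the opposite strand.

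**Figure D4:**
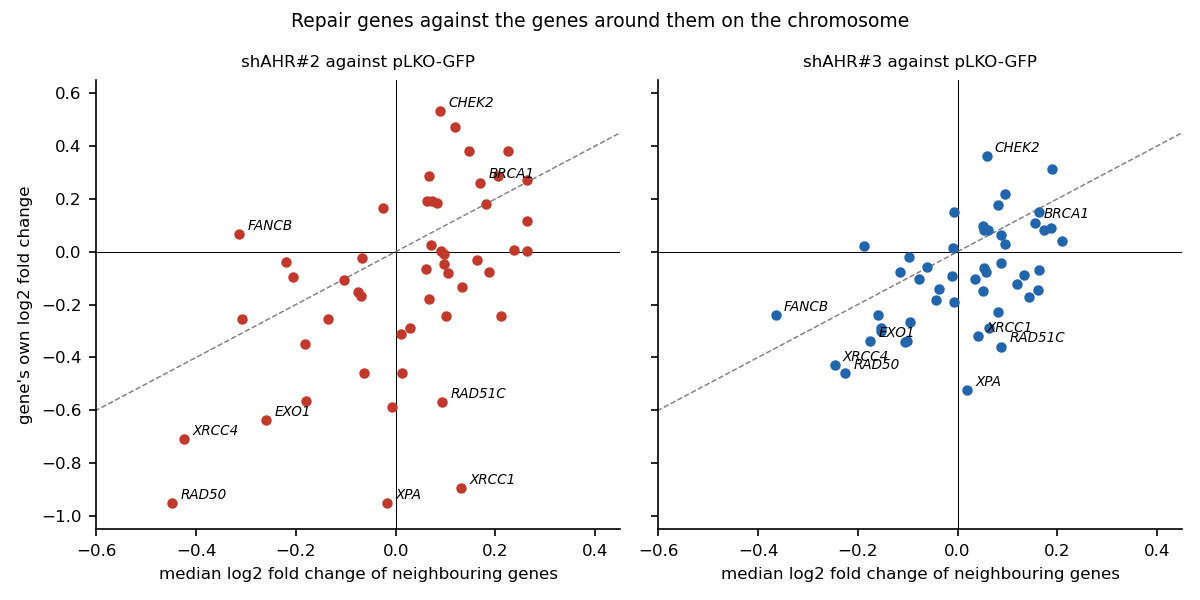
Each repair gene's own log2 fold change (y axis) against the median log2 fold change of up to 50 neighbouring tested genes (x axis), for shAHR#2 (left) and shAHR#3 (right) against pLKO-GFP, with a dashed line where the 2 are equal. RAD50 and XRCC4 sit at the lower left, XPA and XRCC1 low at x near 0.

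Other genes of recombination and break repair were called lower more often than higher with both constructs. In a list of 50 further genes of this kind, 49 were tested. With shAHR#2, 26 were lower and 10 higher (median -0.21), beside 33.2% and 32.6% of all genes. With shAHR#3, 20 were lower and 7 higher (median -0.13), beside 27.5% and 26.9%. The list was chosen with earlier results of these data known, so it is no independent check of the 50 repair genes. Of genes called lower with both constructs, the 2 with the largest mean fall were MCM8 and RPA3. MCM8, a helicase of recombination, had log2 fold changes of -0.91 and -0.63. RPA3, a subunit of the single-strand binding protein RPA, had values of -0.86 and -0.52. SHLD1 fell more with shAHR#2 (-1.07, adjusted p = 0.00479), at 1.4 mean CPM with pLKO-GFP, and was not called with shAHR#3. Rises were called for EME2, a nuclease subunit, with log2 fold changes of 0.58 and 0.29, BABAM2, of the BRCA1-A complex, with values of 0.65 and 0.22, and RNF168, the histone ligase at breaks, with values of 0.46 and 0.27.

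Of 48 tested excision, mismatch and bypass repair genes, 20 were lower and 17 higher with shAHR#2, beside 33.2% and 32.6% of all genes. With shAHR#3, 21 were lower and 9 higher, beside 27.5% and 26.9%. The uracil glycosylase UNG had log2 fold changes of -1.52 and -0.85, falling from a mean of 123 CPM with pLKO-GFP to 42.9 and 68.5, and ERCC6, of transcription-coupled repair, had values of -1.19 and -0.74. ERCC5, a nuclease of excision repair, rose, with log2 fold changes of 0.83 and 0.74, and the glycosylases TDG and SMUG1 rose, TDG with values of 0.56 and 0.42 and SMUG1 with values of 0.43 and 0.45.

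Replication and mitosis genes are given beside the repair lists. Among all genes 33.2% were lower and 32.6% higher with shAHR#2, and 27.5% lower and 26.9% higher with shAHR#3. Of 35 DNA replication genes 16 were lower and 12 higher with shAHR#2, and 16 lower and 8 higher with shAHR#3. The S-phase factor E2F1 had log2 fold changes of -0.90 and -0.49 and the clamp loader subunit RFC2 values of -0.84 and -0.47, whereas the licensing genes CDT1, ORC1 and CDC6 rose, CDT1 with values of 0.37 and 0.37, ORC1 with values of 0.44 and 0.22 and CDC6 with values of 0.37 and 0.15. Of 26 mitosis genes 15 were lower and 5 higher with shAHR#2, and 11 lower and 8 higher with shAHR#3. Set directly against shAHR#2, shAHR#3 had 16 of these higher and 1 lower (median 0.15), beside 21.9% and 20.4% of all genes.

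MKI67, the proliferation marker, had log2 fold changes of -0.69 and -0.27 and CDC25C, a mitotic phosphatase, values of -0.71 and -0.35. TOP2A, BIRC5 and UBE2C, also of the G2 and M phases, rose, TOP2A with log2 fold changes of 0.24 and 0.21, BIRC5 with values of 0.32 and 0.24 and UBE2C with values of 0.23 and 0.20. Cell cycle phase was not measured, and its part in the values of the repair genes was not tested.

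Among 20 p53 target genes, a class to which MDM2 and XPC also belong, 9 were lower and 5 higher with shAHR#2. With shAHR#3, 4 were lower and 6 higher. The shares of all genes were 33.2% and 32.6% with shAHR#2 and 27.5% and 26.9% with shAHR#3. CDKN1A, the cell cycle inhibitor p21, had log2 fold changes of 0.81 and 0.59, SESN1 values of 0.51 and 0.36 and PPM1D, a phosphatase of the damage response, values of 0.45 and 0.34. ZMAT3 and POLH, a bypass polymerase, fell, ZMAT3 with log2 fold changes of -1.07 and -0.29 and POLH with values of -0.49 and -0.22. Activity of p53 was not measured, and its part in these values was not tested.

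**Figure D5:**
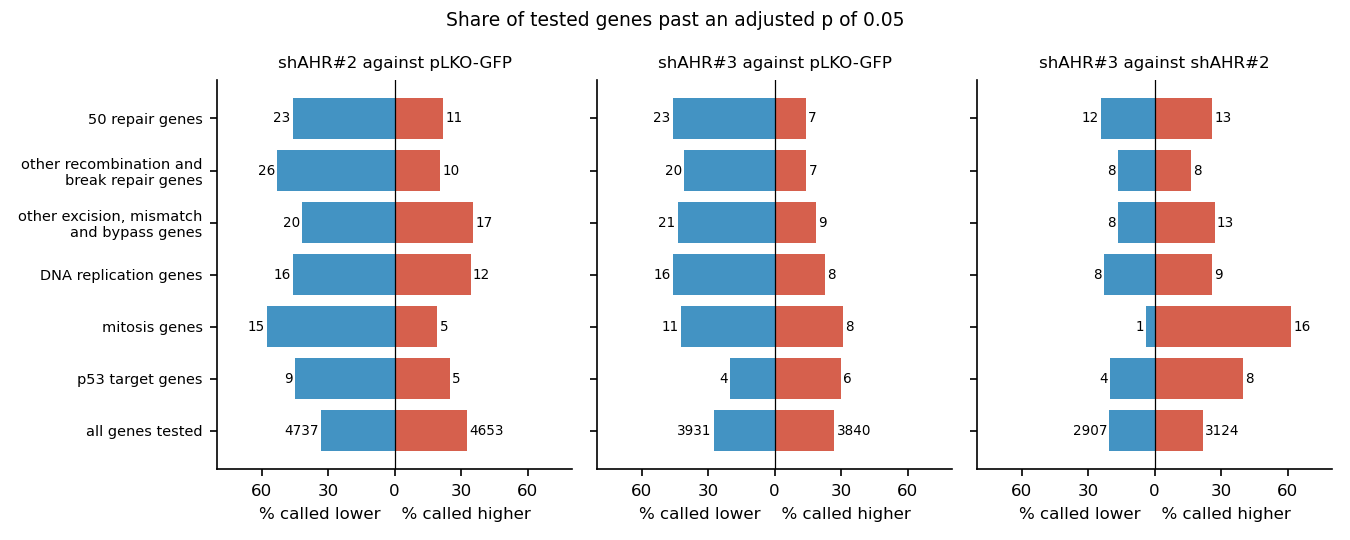
Percentage of tested genes called lower (blue, to the left) and higher (red, to the right) in each list and among all genes tested, for the 3 comparisons, with the number of genes at the end of each bar. The 50 repair genes show 23 lower and 11 higher with shAHR#2, 23 and 7 with shAHR#3, and 12 and 13 between the constructs.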

How the data were processed

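The deposited table holds whole-number read counts per gene for 9 MDA-MB-231 libraries. The authors prepared stranded mRNA libraries, sequenced single ends on an Illumina NextSeq instrument and aligned them with STAR. The submitters' processing notes list GRCh38.p13, FastQC, featureCounts and Subread. The annotation release and the strand setting are not given in the sources used here, so counts of overlapping genes are uncertain.

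Groups were taken from the sample titles, with 3 libraries each. The labels do not say that replicates came from separate cultures, so p-values measure only the spread between these libraries, which may be technical. No library was merged, since all pairs of replicates differed beyond sampling noise, with chi-square values of 1.76 to 4.22 per degree of freedom. Totals of 15991396 to 20374460 counts limit the precision through counting error, and the standard errors of the 50 log2 fold changes with shAHR#2 ran from 0.02 to 0.17.

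Counts were filtered with filterByExpr (minimum count 10, minimum total 15), scaled by TMM and fitted with edgeR 4.0.16 (glmQLFit, glmQLFTest; limma 3.58.1, R 4.3.3) as 1 mean per group over 9 libraries. The Benjamini-Hochberg adjustment ran over all 14274 genes tested. Each standard error is the size of the log2 fold change over the square root of its F value. On data simulated for shAHR#2 against pLKO-GFP with 14039 genes, edgeR recovered 59 of 97 genes changed 1.25-fold and 89 of 98 changed 2-fold. Of 158 calls 10 were false. No other tested genes were changed there, whereas 4653 genes were called higher and 4737 lower in the real comparison. These figures therefore do not measure recovery or false calls among the real calls. The authors used DESeq2, which is an alternative here (1.42.0).

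The repair genes and the other lists were chosen with earlier results of these data known. The text names BRCA1, BRCA2, PALB2 and BARD1, the 6 largest called rises and falls with each construct, genes called in opposite directions by the constructs (there were 0), and the 3 largest called differences each way between constructs. AHR and, from every other list, up to 3 rises and 2 falls called with both constructs are named as well. This gave 22 repair genes, and the others are described within their role group.

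The alternatives tried were another tool (DESeq2), DESeq2 size factors within edgeR, unfiltered counts, a filter at a mean count of 50, fits without the uninvolved group, a replicate block, each library left out in turn, and stricter calls (0.5 on the log2 scale as well, or an adjusted p under 0.01). For motifs the window before the start alone was tried, and, chosen after seeing the data, only windows near the MANE Select start.

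Positions, exon overlaps and transcript lengths come from GENCODE release 44 (60507 of 60649 identifiers matched), and promoters from RefSeq on GRCh38.p14, read with Python 3.11.15.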

Additional observations from a re-analysis of the deposited data

Results flagged for a closer look

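The effects of the 2 constructs differed, by the direct test of shAHR#3 against shAHR#2, for 25 of the 50 repair genes, 13 higher and 12 lower with shAHR#3. Among all genes 21.9% were higher and 20.4% lower, so that the count lies near the background. The largest differences on the log2 scale were 0.57 for XRCC1, 0.49 for RAD50 and 0.42 for XPA, all lower with shAHR#2, and -0.31 for FANCB, -0.30 for XPC and -0.23 for ERCC1, all lower with shAHR#3. The FANCB call was lost with DESeq2 (-0.31 with an adjusted p of 0.0843). The RAD50 and FANCB calls were also lost without single shAHR libraries.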

How the results depend on the processing

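Of the calls on repair genes, 30 of 34 with shAHR#2, 17 of 30 with shAHR#3 and 12 of 25 between the constructs were kept under another tool, scaling, filter, sample choice or block and with each library left out in turn, and 0 turned direction. Leaving out a library gave 11 to 12 higher and 20 to 23 lower genes with shAHR#2, 4 to 8 and 17 to 22 with shAHR#3, and 8 to 13 and 7 to 12 between the constructs. With shAHR#3, 17 were lower without pLKO-GFP replicate 1, where RAD50, XRCC1, PALB2, XRCC2 and MDC1 were among the calls lost. Only 4 were higher with shAHR#3 without pLKO-GFP replicate 3. With shAHR#2, 20 were lower without pLKO-GFP replicate 1 or shAHR#2 replicate 1. Between the constructs, 8 were higher without shAHR#2 replicate 2 or shAHR#3 replicate 1, and 7 lower without shAHR#2 replicate 1 or shAHR#3 replicate 2. A log2 fold change of at least 0.5 left 1 higher and 8 lower with shAHR#2, 0 and 1 with shAHR#3, and 1 and 0 between the constructs (6.96% and 4.41% of all genes), since fewer genes can pass. An adjusted p under 0.01 left 4 higher and 15 lower with shAHR#3 (22.4% and 22.6% of all genes), and 7 and 6 between the constructs (17.3% and 15.7%). DESeq2 gave 11 and 21 with shAHR#2 (30.5% and 30.6% of all genes), 5 and 20 with shAHR#3 (24.3% and 24.7%), and 10 and 8 between the constructs (19.0% and 18.4%).

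The replicate numbers paired the libraries weakly at most. The correlation of deviations was 0.0031 to 0.058 between same-numbered libraries of different groups and -0.068 to 0.023 between differently numbered ones. The block gave 11 higher and 23 lower with shAHR#2, 7 and 23 with shAHR#3 and 13 and 12 between the constructs. Values that changed sign, of genes not called, were FANCB with shAHR#2, from -0.036 to 0.16 as each library was left out, and ERCC1 with shAHR#3, from -0.078 to 0.0080. The share of windows with E2F letters was 11.1% before the start alone, where 2.79% of all promoters held them, and 26.3% in windows near the MANE Select start, where 4.69% did. Depth limits RAD50, FANCB, FANCF and RAD51B the most, which stand under 10 mean CPM.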
